A study of Mus musculus with 16 samples.

Results

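The 32 genes described here encode the machinery of glutamatergic transmission. They were taken by symbol and comprise 23 subunits of the ionotropic and metabotropic glutamate receptors, 3 vesicular glutamate transporters and 6 postsynaptic scaffold proteins. All 32 were found among 53465 annotated genes, of which 36267 had at least 1 read. Female C57BL/6J mice were operated at 8 weeks of age. In spared nerve injury (SNI), a model of neuropathic pain, branches of both sciatic nerves (tibial and common peroneal) were ligated and cut while the sural branch was left whole, and sham mice had the same surgery with the nerves untouched. The L3 to L5 dorsal root ganglia (DRG), which house the cell bodies of sensory neurons, and the dorsal part of the matching lumbar spinal cord were taken 30 days later. Each replicate was a separate pool of tissue from 10 mice, so that variation between single animals was averaged before it could be measured. The lysate of each pool was divided into poly(A) mRNA for mRNA-seq and RNase I-resistant ribosome footprints for ribosome profiling, giving 4 SNI groups and 4 sham groups (each tissue and assay) of 2 libraries, 16 libraries in all.

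Glutamate is the main excitatory transmitter of primary sensory neurons and of excitatory interneurons in the dorsal horn. It is loaded into vesicles by the vesicular transporters and acts on AMPA, kainate and NMDA receptors, which are ion channels, and on metabotropic receptors, which are coupled to G proteins. Sensory neurons carry their own glutamate receptors, in part at their central terminals, while the scaffold proteins hold receptors at the postsynaptic density of the receiving neuron. Whole ganglia and whole dorsal cord were lysed, so that fewer cells of a type and less RNA per cell cannot be told apart.

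Start codons of 6 members are printed because these genes are named in the results on ribosome occupancy. They include the 3 whose footprints per mRNA were called changed in DRG after SNI by edgeR (Gria2, Slc17a6 and Slc17a7). With DESeq2 only Slc17a6 passed (adjusted p = 0.0279, against 0.999 for Gria2 and 0.523 for Slc17a7). The others are the member with the highest density of footprints per mRNA after scaling to length (Grin1) and the 2 with the lowest (Shank1 and Grik5). Each line holds 9 bases before the annotated start codon, the start codon in capitals and 6 bases after it, from GENCODE transcripts on GRCm38. Nothing about translation is inferred from them.
Gria2: ttcttggaaATGcaaaag
Slc17a6: tttacaagaATGgagtcg
Slc17a7: acagccaccATGgagttc
Grin1: ccgaggctcATGagcacc
Shank1: ggccccacgATGacccac
Grik5: gggaggaagATGccggct
The genes lie at chr3:80681450-80802835 on the minus strand (Gria2), chr7:51622006-51671119 on the plus strand (Slc17a6), chr7:45163949-45176142 on the plus strand (Slc17a7), chr2:25291181-25319187 on the minus strand (Grin1), chr7:44310253-44360572 on the plus strand (Shank1) and chr7:25009849-25072346 on the minus strand (Grik5). The annotated 5' leader of the transcript used was 451 bases in Gria2, 629 in Slc17a6, 134 in Slc17a7, 234 in Grin1, 87 in Shank1 and 303 in Grik5.

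The mRNA libraries held 18176471 to 28553113 reads in genes and the footprint libraries 6898056 to 21613483. The 32 genes took 0.16 to 0.17% of these reads in DRG mRNA, against 0.33 to 0.34% in spinal cord mRNA. All 13 sensory neuron markers checked were higher in sham DRG than in sham cord. In SNI DRG mRNA, all 11 injury-induced genes tested rose, and so did 8 of 8 skeletal muscle markers tested and 6 of 9 markers of microglia and macrophages. Over all genes tested 15.9% rose and 17.0% fell. The muscle gene Myh7, under the read minimum, was lower, at 8.47% of sham cord in SNI DRG and 21.1% in sham DRG. The injury gene Vip, also under it, had 6 reads in SNI DRG and 10 in sham DRG. Of the 13 sensory neuron markers, 4 rose and 9 fell in SNI DRG mRNA (median log2 change -0.14), and their part in the changes of the members was not tested. Replicate DRG mRNA libraries differed by little more than counting error, with a chi-square per gene of 1.06 to 1.07 where counting error alone gives 1. For DRG footprints it was 2.64 in SNI and 3.30 in sham, and in cord 1.21 to 1.76. P-values rest on 2 pools a group, and calls of members lost when 1 library was left out or with DESeq2 are named below. Calls of genes in other lists are given from the main edgeR fit alone.

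In sham mice, where nerves were intact, the members formed 2 unlike sets in ganglion and cord. Slc17a7, the vesicular transporter of large-diameter sensory neurons, and Grik1, a kainate receptor subunit of nociceptors, were far higher in DRG mRNA. The NMDA receptor subunits Grin2a and Grin2b and the metabotropic receptor Grm5 were found almost wholly in the cord. Of the 32 members, 6 were higher and 25 lower in DRG than in cord (edgeR, adjusted p under 0.05), where 41.4% of all genes tested were higher and 42.3% lower. Their median log2 difference was -1.56, against -0.01 over all genes. All 31 calls were kept in every leave-one-out fit and with DESeq2, and with a biological coefficient of variation fixed at 0.1 there were 5 higher and 24 lower, the calls of Grm7 (adjusted p = 0.0987) and Slc17a6 (0.0716) being lost. Values in this paragraph and the next are reads of a gene relative to all reads in genes (CPM, the usual scaling of counts to a fixed library size), scaled across all 8 mRNA libraries.

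Slc17a7 averaged 195.3 ± 1.7 CPM in sham DRG and 4.22 ± 0.14 CPM in sham cord (SD, n = 2 each), a log2 difference of 5.54 (edgeR, adjusted p = 8.76e-46). Grik1 averaged 223 ± 4.03 CPM in DRG and 17.7 ± 1.64 CPM in cord, a log2 difference of 3.66. Slc17a8, the transporter of a small class of low-threshold sensory neurons, averaged 15.8 CPM in DRG and 2.69 CPM in cord. In all of these the groups lay far apart. The scaffold gene Homer2 was 1.61 higher on the log2 scale, the kainate subunit gene Grik4 1.00 higher, and the presynaptic receptor gene Grm7 0.27 higher in DRG than in cord. On the other side, Grin2b averaged 1.64 CPM in DRG and 108.7 CPM in cord, a log2 difference of -6.06. Grin2a averaged 1.93 CPM in DRG and 118 CPM in cord (log2 difference -5.92), and Grm5 2.96 CPM in DRG and 134 CPM in cord (-5.49). The remaining members among the 6 lowest were the metabotropic receptor genes Grm2 (-5.74) and Grm3 (-4.50) and the NMDA subunit gene Grin2c (-4.12). Grm8, which encodes a presynaptic receptor, was the only member not called, at 0.02 (adjusted p = 0.87).

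Per kilobase of exon, Slc17a6 led sham DRG mRNA at 47.1 CPM, followed by Slc17a7 at 36.2, the scaffold Dlg4 at 34.9 and Grik1 at 33.2. In sham cord mRNA the order was Dlg4 at 62.4, Slc17a6 at 58.0 and Grin1, the obligatory NMDA receptor subunit, at 41.4. In footprints per kilobase of coding sequence, Slc17a6 was again first in sham DRG at 200 CPM and Grin1 second at 131, and in sham cord Grin1 came first at 402 and Slc17a6 second at 283. The plot of levels shows these orders for every member.

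**Figure D1:**
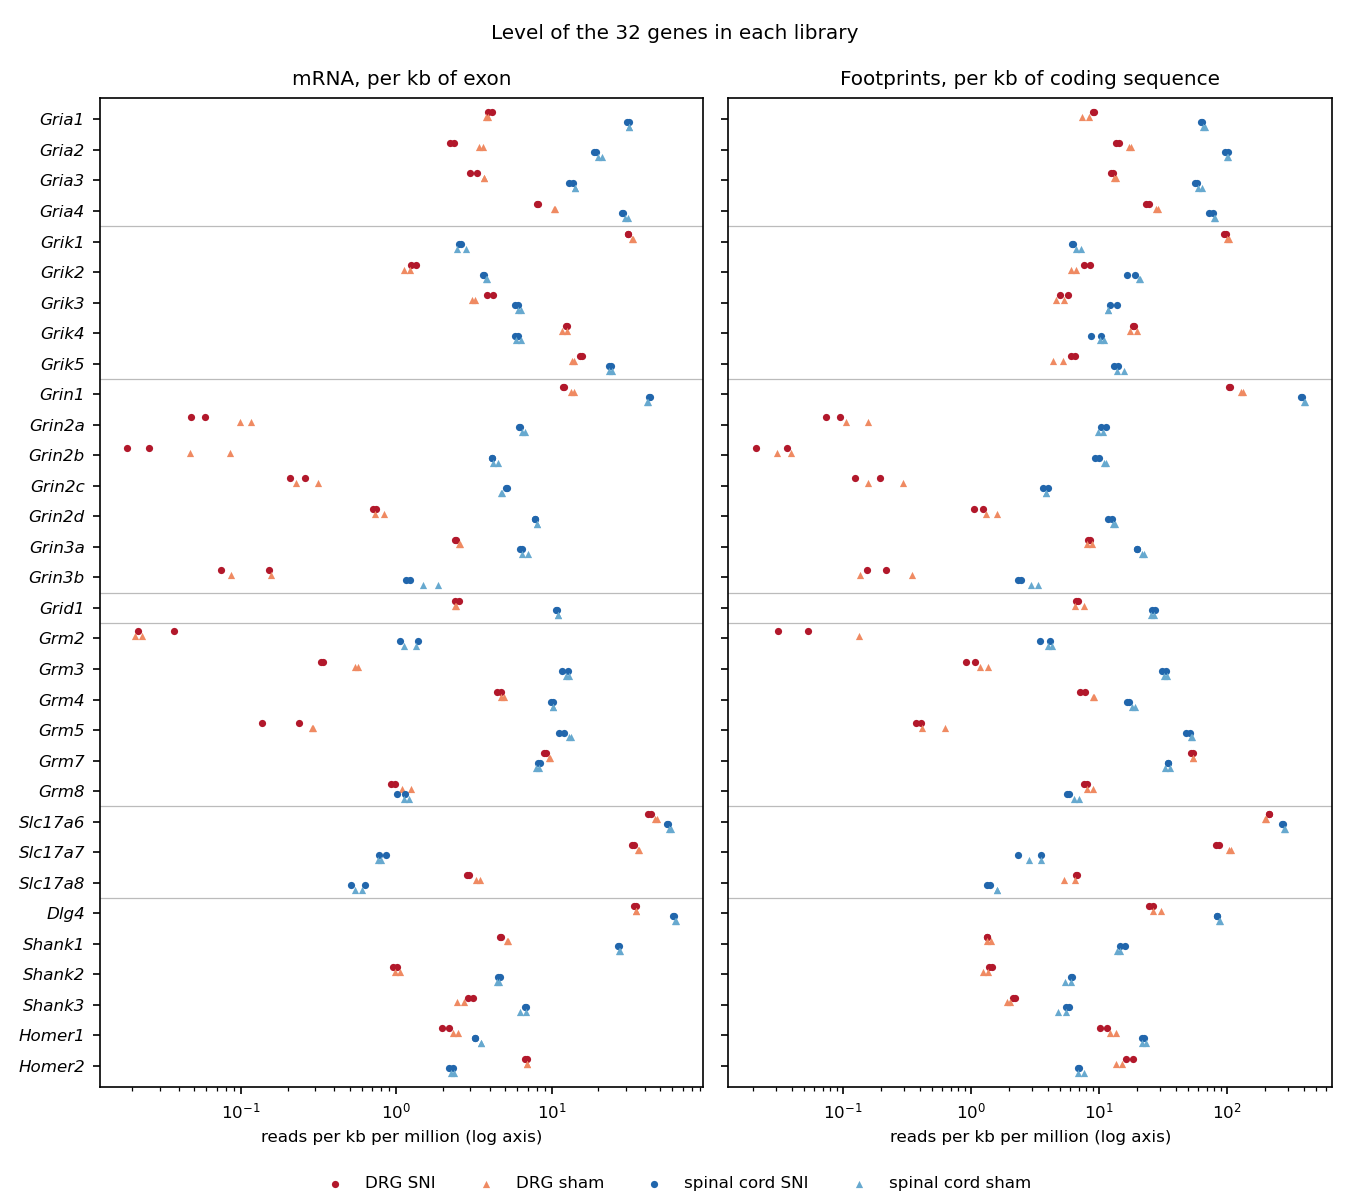
Level of each of the 32 genes in each library, in CPM per kilobase on a log axis, for mRNA (per kilobase of exon) and footprints (per kilobase of coding sequence), with DRG and spinal cord, SNI and sham marked separately. Each point is 1 library, and values of 0 are not drawn (Grm2 footprints in 1 sham DRG library). Slc17a7, Grik1 and Slc17a8 sit higher in DRG, and Grin2a, Grin2b and Grm5 sit higher in cord.

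After SNI, DRG mRNA of 3 of 4 AMPA receptor subunits and of the 3 vesicular transporters fell, the Slc17a8 call being lost in every leave-one-out fit. Of 5 kainate subunits, 2 rose and 1 fell. Of 26 members with enough reads over the 4 libraries to be tested, 3 rose (Grik3, Grik5 and Shank3) and 13 fell in SNI DRG. Over all 14494 genes tested, 15.9% rose and 17.0% fell. The median log2 change of the 26 was -0.10 against 0.00 over all genes. Changes were small: only Gria2 passed 1.5-fold. With DESeq2 1 member was higher and 5 were lower, and with the biological coefficient of variation fixed at 0.1 none was higher and only Gria2 was lower. In footprints 3 of 26 members were higher and 5 lower, beside 8.4% and 8.28% of all 13038 genes. Members called in mRNA and in footprints numbered 6, of which 5 went the same way and Slc17a6 the opposite way. Translational efficiency (TE), the footprints of a gene over its mRNA in the same lysate, was tested as an interaction of assay with surgery. It rose for Gria2 and Slc17a6 and fell for Slc17a7 among 25 members tested, where 4.22% of all 12710 genes rose and 3.21% fell. Calls kept in every leave-one-out fit and with DESeq2 were 6 of 16 in mRNA (Gria2, Gria4, Grik3, Grin1, Slc17a6 and Slc17a7), 3 of 8 in footprints (Gria2, Grin1 and Slc17a7) and 1 of 3 in TE (Slc17a6).

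**Figure D2:**
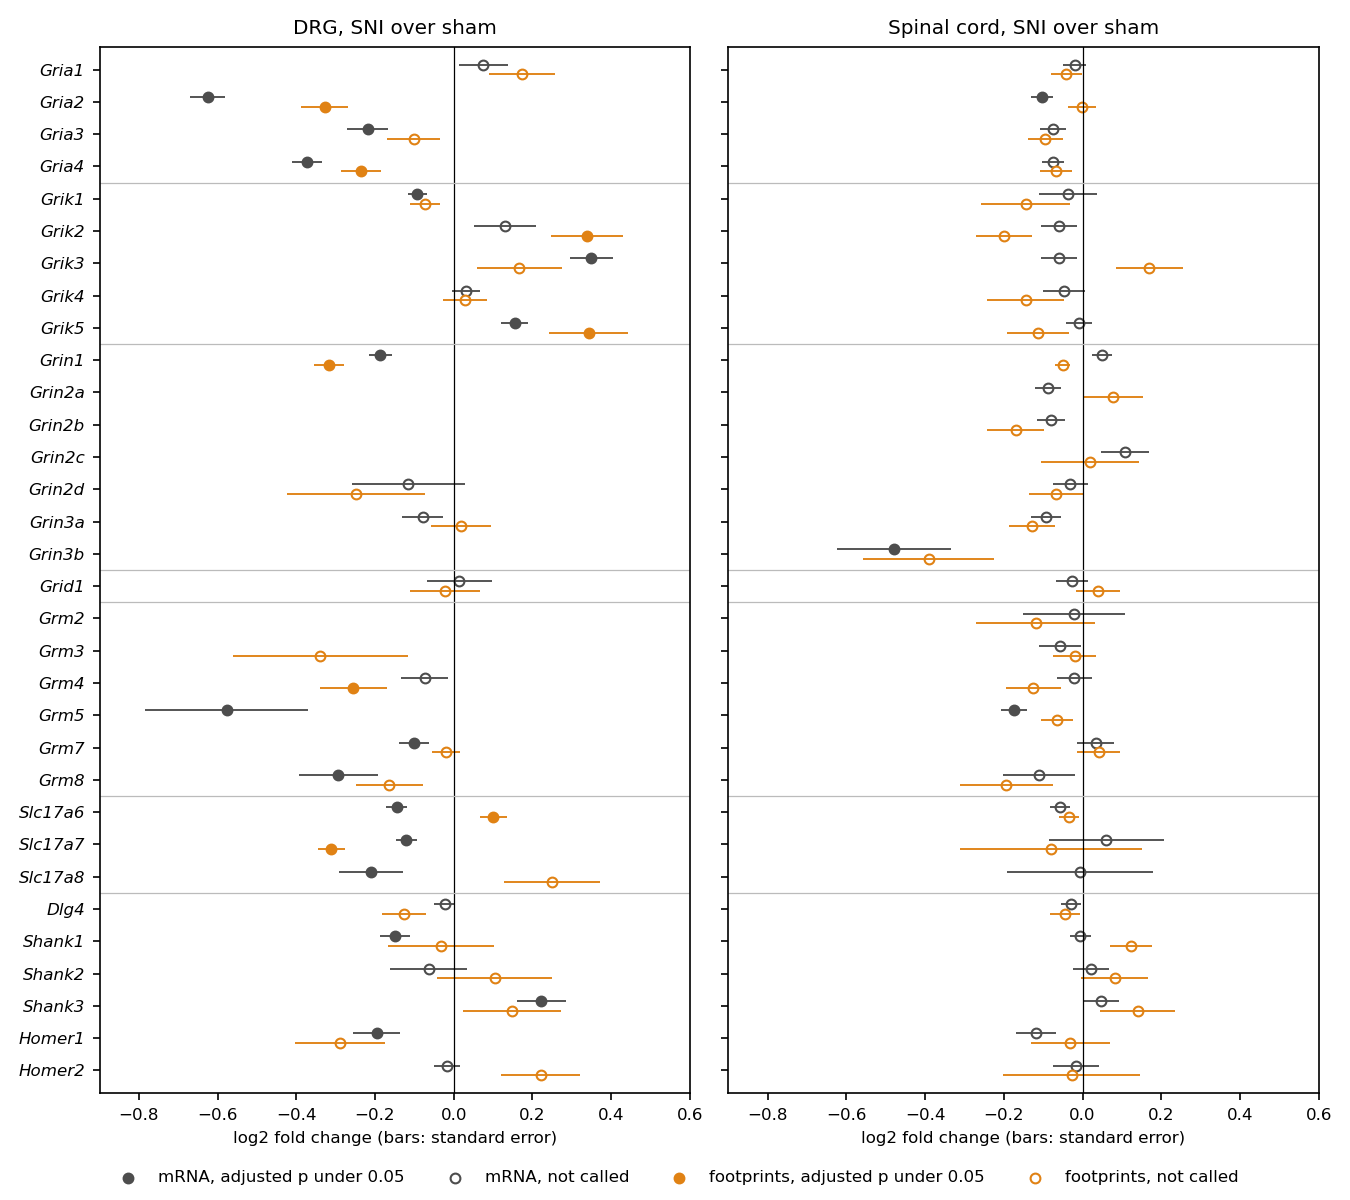
Log2 change of SNI over sham for each member in DRG and in spinal cord, for mRNA and footprints. Bars are 1 standard error, worked back from the edgeR test statistic. Filled points passed an adjusted p of 0.05. In DRG the Gria2 mRNA point lies farthest from 0 at -0.63, and in spinal cord only Gria2, Grm5 and Grin3b mRNA passed.

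Among the AMPA receptor subunits, Gria2, which encodes the subunit that makes these channels nearly impermeable to calcium, changed most. Gria2 mRNA stood at 35.7 and 33.8 CPM in SNI DRG, against 52.4 and 55.3 CPM in sham DRG. Both SNI pools lay well below both sham pools, and the log2 change was -0.63 (SE 0.05, edgeR adjusted p = 7.42e-14), between -0.67 and -0.59 with any 1 library left out. Gria2 footprints stood at 35.3 and 37.3 CPM in SNI DRG and 45.1 and 46.2 CPM in sham DRG. The groups again did not overlap, but the fall was smaller (log2 -0.33, SE 0.06, edgeR adjusted p = 5.75e-06). Gria2 TE was accordingly higher, at -0.02 and 0.14 on the log2 scale in SNI lysates and -0.21 and -0.26 in sham lysates, a difference of 0.31 (SE 0.08, edgeR adjusted p = 0.0019). That TE call was lost without sham replicate 2 (adjusted p = 0.106), without SNI replicate 2 (0.309) and with DESeq2 (0.999).

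Gria4, another AMPA subunit gene, had 49.5 and 50.4 CPM of mRNA in SNI DRG, against 65.4 and 63.7 CPM in sham DRG (log2 -0.37, SE 0.04, edgeR adjusted p = 4.6e-10). Its footprints were 66.4 and 62.9 CPM in SNI DRG and 77.2 and 74.9 CPM in sham DRG (log2 -0.23, SE 0.05, edgeR adjusted p = 0.000189). No SNI pool reached a sham pool in either assay, though the footprint call was lost without SNI replicate 2 (adjusted p = 0.0531) and with DESeq2 (0.0642). Gria3 mRNA was 31.9 and 28.9 CPM in SNI DRG and 35.7 and 35.5 CPM in sham DRG (log2 -0.22, SE 0.05, edgeR adjusted p = 0.00127, but 0.0858 with DESeq2). Gria1 did not pass, with 24.5 and 23.2 CPM in SNI DRG and 23.1 and 22.3 CPM in sham DRG (edgeR adjusted p = 0.39). Thus 3 of 4 AMPA subunit mRNAs fell, and the fourth did not pass the test.

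Several members are far higher in cord than in DRG, and reads of genes that mark cord cells were found in the DRG libraries, so DRG levels were also set against the sham cord. Gria2 mRNA in DRG was 11.1% of the sham cord level after SNI and 17.1% in sham, 6.0 points lower. The part of RNA from cord cells in this difference was not tested. Of 40 markers of cord neurons, oligodendrocytes and astrocytes, 19 lay under 3% of sham cord in sham DRG mRNA with at least 20 sham reads. These 19 ranged over 0.206 to 2.65% of sham cord in SNI DRG (median 0.843%) and 1.2 to 2.98% in sham DRG (median 1.63%). Both the 3% limit and the floor of 20 reads were set on sham DRG, so the direction of change among the 19 depends on that choice. Of the 19, 18 were lower after SNI, by at most 1.24 points, and Glra1 was higher (2.24% against 1.9%). Among all 40, edgeR called 0 higher and 6 lower of 13 cord neuron markers tested in DRG mRNA. It called 2 and 4 of 10 oligodendrocyte and 1 and 5 of 10 astrocyte markers, beside 15.9% and 17.0% of all genes. Tmem88b, just over the limit, stood at 4.76% after SNI and 3.01% in sham. In footprints the same 19 ranged over 0.0922 to 1.41% in SNI DRG and 0.182 to 1.52% in sham DRG. None of the 40 markers was at 0 in DRG mRNA, and Lhx1 and Neurod2 were at 0 in DRG footprints.

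**Figure D3:**
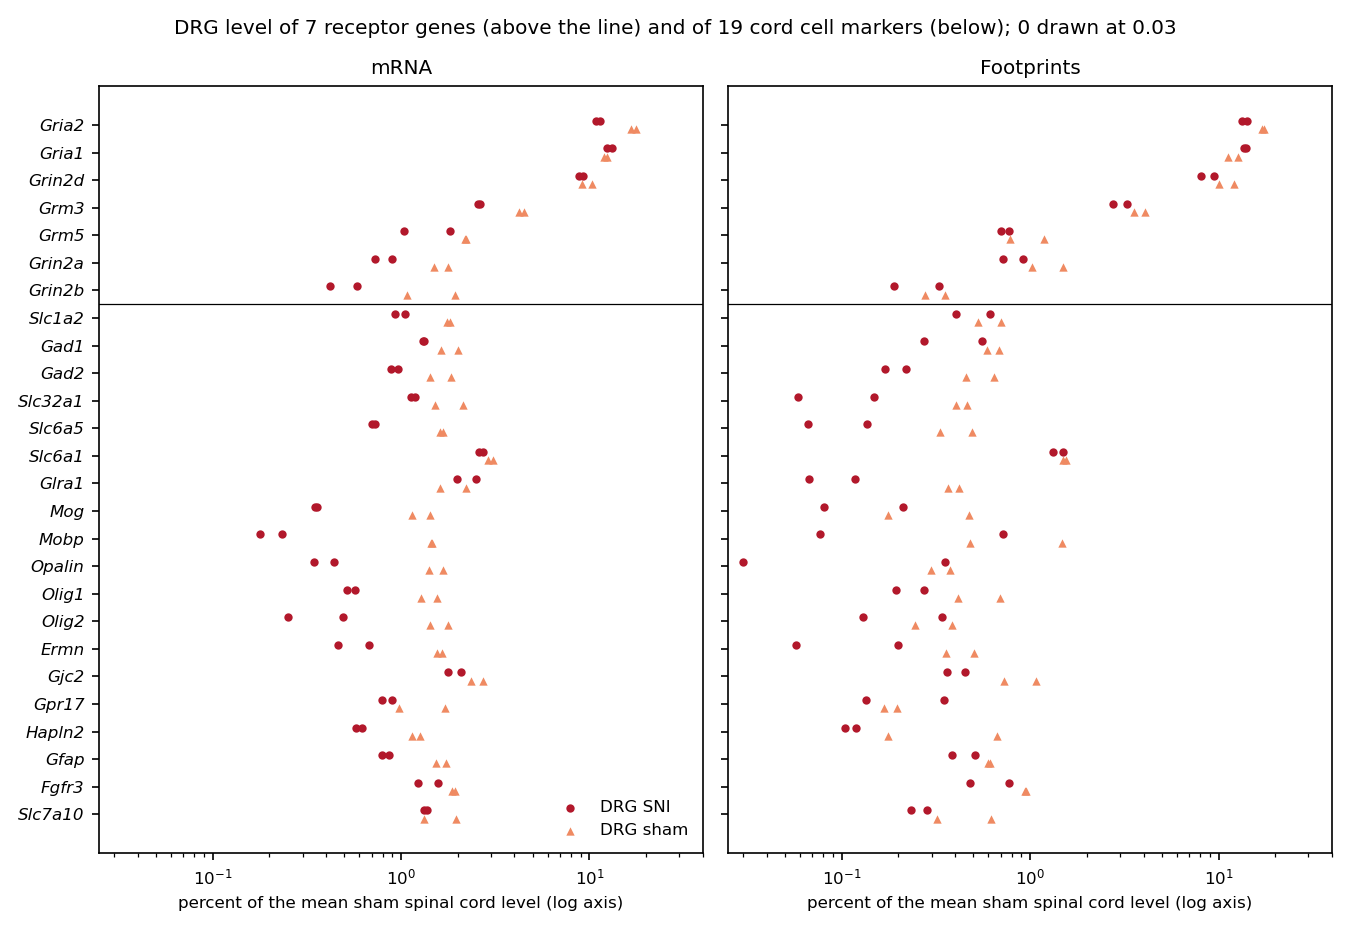
DRG level as a percentage of the mean sham cord level, on a log axis, for 7 receptor genes above the line and 19 markers of cord cells below it, in mRNA and in footprints, with SNI and sham DRG marked separately. A value of 0 is drawn at 0.03. Gria2 lies near 11.1% after SNI and 17.1% in sham in the mRNA panel, above the cord markers, while Grin2a, Grin2b and Grm5 lie among them.

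Kainate receptor mRNAs rose for Grik3 and Grik5 and fell for Grik1. Grik3 mRNA was 33.7 and 37.1 CPM in SNI DRG, against 28.1 and 27.1 CPM in sham DRG (log2 0.35, SE 0.06, edgeR adjusted p = 3.66e-06). Every SNI pool was above every sham pool, and the call held under all leave-one-out fits. Its footprints, 13.5 and 15.6 CPM in SNI DRG and 14.6 and 12.5 CPM in sham DRG, overlapped and did not pass (edgeR adjusted p = 0.343). Grik5, which encodes a high-affinity subunit that needs a partner subunit to form a channel, had 76.7 and 79.5 CPM of mRNA in SNI DRG and 70.9 and 69.0 CPM in sham DRG (log2 0.15, SE 0.03, edgeR adjusted p = 0.000513, but 0.0621 with DESeq2). Grik5 footprints were 17.6 and 18.9 CPM in SNI DRG and 12.7 and 15.3 CPM in sham DRG (log2 0.34, SE 0.10, edgeR adjusted p = 0.00884). Both assays had the SNI pools on top, but the footprint call was lost without sham replicate 1 (adjusted p = 0.0952), without SNI replicate 2 (0.194) and with DESeq2 (0.345).

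Grik2, a channel-forming kainate subunit gene, was called in footprints only, with 20.7 and 22.8 CPM in SNI DRG and 16.2 and 17.9 CPM in sham DRG (log2 0.34, SE 0.09, edgeR adjusted p = 0.0038). Its mRNA change was 0.13 (edgeR adjusted p = 0.222), and the footprint call was lost without SNI replicate 2 (0.204) and with DESeq2 (0.298). Grik1 mRNA was lower after SNI by a small amount (log2 -0.09, edgeR adjusted p = 0.00319), a call lost without sham replicate 1 (0.0892), with library sizes alone (0.0593) and with DESeq2 (0.066). Grik4 did not pass in either assay. In sum 2 of 5 kainate mRNAs rose and 1 fell, and 2 of 5 rose in footprints.

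Of the NMDA receptor subunits only Grin1, Grin2d and Grin3a had enough reads in DRG to be tested, and only Grin1 changed. Grin1 mRNA was 113 and 114 CPM in SNI DRG and 126 and 132 CPM in sham DRG (log2 -0.19, SE 0.03, edgeR adjusted p = 3.22e-06). Grin1 footprints were 293 and 289.5 CPM in SNI DRG, against 367 and 358 CPM in sham DRG (log2 -0.32, SE 0.04, edgeR adjusted p = 2.89e-12). Both falls were larger than the spread between pools and held under all leave-one-out fits and with DESeq2. Grin1 TE was 0.13 lower on the log2 scale, short of the threshold (edgeR adjusted p = 0.0693). Grin1 shares 13.5% of its exonic bases with the antisense gene Grin1os. The study's methods describe the sequencing as not strand-specific, and the sources used here do not state whether counting used strand. Where it did not, Grin1os reads cannot be told apart from those of Grin1.

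Grin2b, which encodes a glutamate-binding NMDA receptor subunit, was near the limit of detection in DRG. It had 13 and 14 mRNA reads in SNI DRG, against 23 and 37 in sham DRG, and 2 and 2 footprint reads in SNI DRG, against 1 and 3 in sham DRG. The SNI pools were below the sham pools in mRNA, while footprints overlapped at a depth that could not show a difference. Without the minimum number of reads the mRNA change was -1.57 (SE 0.30, edgeR adjusted p = 1.48e-05), and that of Grin2a, with 30 and 19 reads in SNI DRG and 41 and 31 in sham DRG, was -0.98 (SE 0.24, edgeR adjusted p = 0.00238). As a share of the sham cord level, Grin2b mRNA was 0.503% in SNI DRG and 1.51% in sham DRG, and Grin2a mRNA 0.81% and 1.63%. These levels lie within the range of the 19 cord markers, which were picked by their sham values. The part of cord cell RNA in these differences was not tested. Grin2c and Grin3b were also under the minimum.

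The metabotropic receptor genes Grm5, Grm7 and Grm8 were lower in mRNA and none rose, but no call in this class held in every fit. Grm5, which encodes a receptor coupled to phospholipase C, had 2.39 and 1.38 CPM of mRNA in SNI DRG and 2.91 and 2.89 CPM in sham DRG (log2 -0.58, SE 0.21, edgeR adjusted p = 0.0305). SNI replicate 2 was the lowest, and without it the change was -0.28 (edgeR adjusted p = 0.371). The call was also lost without either sham pool and with DESeq2, and at 1.43% of the sham cord level after SNI and 2.2% in sham, Grm5 lay in the range of the cord markers, whose part was not tested. Grm8 mRNA was 9.04 and 9.50 CPM in SNI DRG and 10.6 and 12.1 CPM in sham DRG (log2 -0.29, SE 0.10, edgeR adjusted p = 0.0233), lost without sham replicate 2 (0.27), without SNI replicate 1 (0.137) and with DESeq2 (0.267). Grm7 was just inside the threshold (log2 -0.10, edgeR adjusted p = 0.049) and fell outside it in every leave-one-out fit. Grm4, a presynaptic receptor gene, was called in footprints alone, at 19.2 and 21.1 CPM in SNI DRG and 24.6 and 24.2 CPM in sham DRG (log2 -0.26, SE 0.09, edgeR adjusted p = 0.0243, lost without SNI replicate 1, without either sham pool and with DESeq2). Grm2 and Grm3 mRNA were under the minimum. The delta receptor gene Grid1, a synapse organiser, did not pass in either assay.

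The vesicular transporters showed opposite changes at the ribosome. Slc17a6, which encodes the transporter used by most nociceptors, had 231 and 219.6 CPM of mRNA in SNI DRG, against 253 and 246 CPM in sham DRG (log2 -0.14, SE 0.03, edgeR adjusted p = 3.04e-05). Its footprints were 367 and 371 CPM in SNI DRG and 342 and 346 CPM in sham DRG (log2 0.10, SE 0.04, edgeR adjusted p = 0.0326). Thus each SNI pool had less Slc17a6 mRNA and more Slc17a6 footprints than each sham pool, although the footprint call was lost without SNI replicate 1 (0.126), without SNI replicate 2 (0.232) and with DESeq2 (0.148). Slc17a6 TE was 0.67 and 0.76 on the log2 scale in SNI lysates and 0.44 and 0.49 in sham lysates, a difference of 0.25 (SE 0.04, edgeR adjusted p = 4.67e-07). This was the only TE call among the members to hold in every leave-one-out fit and with DESeq2 (adjusted p = 0.0279), though not with a biological coefficient of variation fixed at 0.1.

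Slc17a7 went down in both assays, and more in footprints. Slc17a7 mRNA was 173 and 180.1 CPM in SNI DRG and 193 and 190.5 CPM in sham DRG (log2 -0.12, SE 0.03, edgeR adjusted p = 0.000373). Its footprints were 143 and 138 CPM in SNI DRG, against 177 and 171 CPM in sham DRG (log2 -0.31, SE 0.03, edgeR adjusted p = 2.85e-13). Groups did not overlap in either assay. Slc17a7 TE was -0.28 and -0.39 in SNI lysates and -0.12 and -0.15 in sham lysates, a log2 difference of -0.20 (SE 0.05, edgeR adjusted p = 0.00091), lost without SNI replicate 2 (0.236) and with DESeq2 (0.523). Slc17a8 mRNA was 13.6 and 13.3 CPM in SNI DRG and 16.0 and 15.0 CPM in sham DRG (log2 -0.21, SE 0.08, edgeR adjusted p = 0.0461), a call lost in every leave-one-out fit. Slc17a8 TE was -0.19 and -0.13 in SNI lysates and -0.47 and -0.66 in sham lysates, without passing (difference 0.43, edgeR adjusted p = 0.0638).

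**Figure D4:**
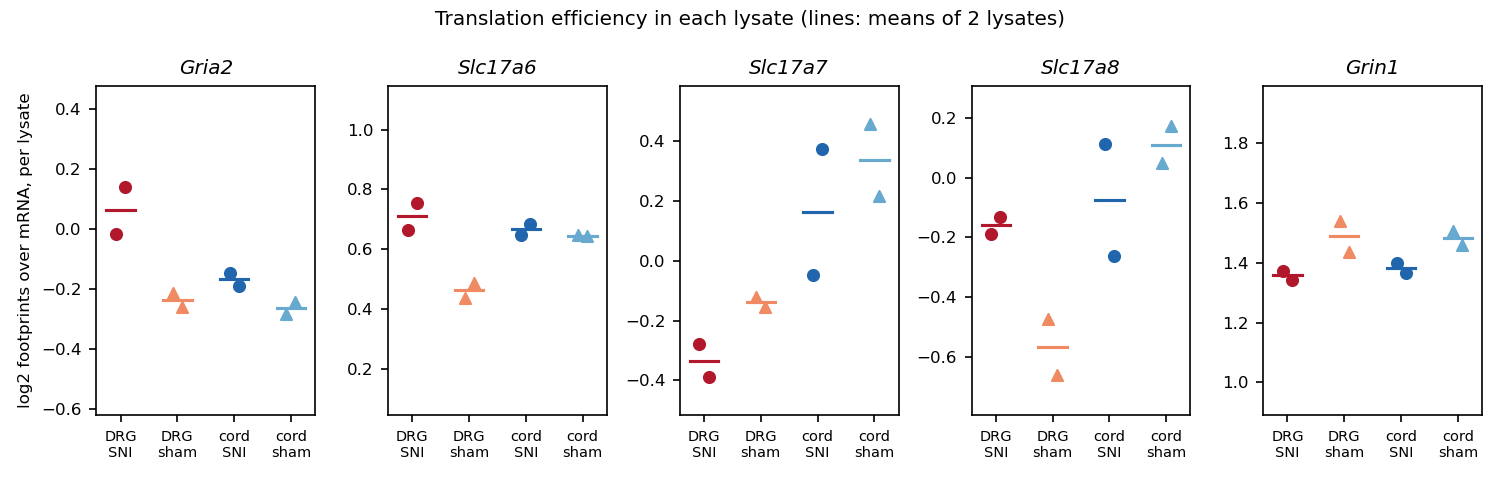
Log2 TE of Gria2, Slc17a6, Slc17a7, Slc17a8 and Grin1 in each lysate of DRG and spinal cord, SNI left of sham, with 1 point per lysate and the mean of 2 lysates as a line. The panels cover the same span of log2 units at different levels. In DRG, SNI lysates lie above sham lysates for Gria2 and Slc17a6 and below them for Slc17a7, with no overlap.

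Of 6 scaffold genes 1 rose and 2 fell in mRNA, and none of these calls held in every fit. Shank3, which encodes a large scaffold of the postsynaptic density, had 27.2 and 25.2 CPM of mRNA in SNI DRG and 21.4 and 23.8 CPM in sham DRG (log2 0.22, SE 0.06, edgeR adjusted p = 0.00585). The nearest pools were close, and the call was lost without sham replicate 1 (0.182), without SNI replicate 1 (0.129) and with DESeq2 (0.196). Homer1, whose product links metabotropic receptors to internal calcium stores, had 25.8 and 23.3 CPM in SNI DRG and 27.4 and 29.2 CPM in sham DRG (log2 -0.20, SE 0.06, edgeR adjusted p = 0.0109), lost without sham replicate 2 (0.14), without SNI replicate 2 (0.14) and with DESeq2 (0.209). Shank1 mRNA was 48.2 and 48.6 CPM in SNI DRG and 54.2 and 53.0 CPM in sham DRG (log2 -0.15, SE 0.04, edgeR adjusted p = 0.0031), lost without sham replicate 1 (0.0627) and with DESeq2 (0.177). Dlg4, Shank2 and Homer2 did not pass in mRNA, and none of the 6 passed in footprints. Dlg4 footprints were called lower without sham replicate 2 (adjusted p = 0.00504).

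In the dorsal spinal cord, where the injured fibres end, the members changed little. None of 32 rose and 3 fell in mRNA, beside 2.09% and 1.96% of all 14723 genes tested, and 10 members had an unadjusted p under 0.05, as had 1245 genes higher and 1264 lower of all tested. In footprints 0 of 31 members passed edgeR in either direction, against 1.21% and 1.03% of all 12018 genes. In that test 7 members had an unadjusted p under 0.05, beside 766 genes higher and 828 lower, and DESeq2 also called 0. In TE 0 of 31 passed edgeR, against 0.169% and 0.0843% of all 11865 genes, with 5 at an unadjusted p under 0.05, beside 436 genes higher and 402 lower, and 0 by DESeq2. Apart from the 3 called, no mRNA change exceeded 0.12 on the log2 scale in size.

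Grm5 mRNA was 125 and 117 CPM in SNI cord and 138 and 135 CPM in sham cord (log2 -0.17, SE 0.03, edgeR adjusted p = 0.000402). Gria2 mRNA was 308 and 299 CPM in SNI cord and 333 and 317 CPM in sham cord (log2 -0.10, SE 0.03, edgeR adjusted p = 0.0168). Grin3b, a little expressed NMDA subunit gene, had 4.12 and 3.87 CPM in SNI cord and 5.002 and 6.26 CPM in sham cord (log2 -0.48, SE 0.14, edgeR adjusted p = 0.0416), and 32.1% of its exonic bases overlap Tmem259 on the opposite strand. The SNI pools lay below the sham pools in all 3 genes, yet each call was lost with DESeq2 and without SNI replicate 2 (adjusted p = 0.145 for Grm5, 0.386 for Gria2 and 0.285 for Grin3b). The Gria2 call was also lost without sham replicate 1 (0.319), and the Grin3b call without sham replicate 2 (0.27) and without SNI replicate 1 (0.114).

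Grin2b mRNA in cord was 105 and 104 CPM after SNI and 114 and 107 CPM in sham, and did not pass (log2 -0.08, edgeR adjusted p = 0.215). Sham replicate 1 stood above the other 3 libraries. Without sham replicate 2, Grin2b was called lower (adjusted p = 0.0235), together with Grin2a, Grin3a and Gria4. Grin2b footprints were 45.6 and 42.8 CPM in SNI cord and 50.8 and 49.0 CPM in sham cord, with no overlap and no call (log2 -0.17, edgeR adjusted p = 0.29). Beside these values, 4 of 5 motor neuron markers tested were lower in SNI cord mRNA, against 1.96% of all genes. In the same test 5 of 9 microglia and macrophage markers and 6 of 11 injury-induced genes were higher, against 2.09% of all genes. The part of these genes in the cord results was not tested.

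The effect of SNI on mRNA was then compared between the tissues. The interaction was tested for 26 members, and 2 had a more positive and 4 a more negative change in DRG than in cord (8.4% and 8.91% of all 13557 genes). These were Grik3 and Grik5 on the positive side, and Gria2, Gria4, Grin1 and Shank1 on the negative side. Calls for Gria2, Gria4, Grin1 and Grik3 held in every leave-one-out fit and with DESeq2. The Grik5 call was lost without DRG sham replicate 2 (adjusted p = 0.0575), without DRG SNI replicate 2 (0.0619) and with DESeq2 (0.16), and that of Shank1 was kept in 1 of 8 leave-one-out fits.

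Footprints per mRNA were also compared between sham ganglion and sham cord, where many genes of all kinds differed. In this comparison of 32 members, 4 had higher TE in DRG and 10 lower, beside 20.4% and 22.6% of all 12504 genes. Grm7 was 0.43 higher in DRG than in cord on the log2 scale (edgeR adjusted p = 2.51e-09). Of 6 scaffold genes 3 were lower, with Shank1 at -0.94 (edgeR adjusted p = 2.56e-16) and Dlg4 at -0.78 (1.66e-36) the lowest, as was the kainate subunit gene Grik5 at -0.75 (5.5e-12). These 4 calls held in every leave-one-out fit and with DESeq2, and that of Grm7 was lost with the coefficient of variation fixed at 0.1. Shank1 TE was -2.55 and -2.61 in sham DRG lysates, against -1.67 and -1.61 in sham cord lysates, and the Dlg4 values were -1.39 and -1.59 in DRG, against -0.68 and -0.75 in cord. Neither pair of groups overlapped. Grin2b TE was 2.25 lower in DRG (edgeR adjusted p = 0.000551) but rested on 4 footprint reads there, and Grm5 TE was 1.22 lower (2.06e-05). Both calls were lost without DRG sham replicate 2. Markers of cord cells were lower in the same test, with 11 of 14 cord neuron, 12 of 14 oligodendrocyte and 10 of 10 astrocyte markers called and medians of -1.28, -1.29 and -0.58, and their part in the Grin2b and Grm5 values was not tested. The next largest differences were Slc17a8 at -0.67 and Homer2 at -0.53, and neither call held in every leave-one-out fit and with DESeq2. The remaining calls, higher for Grm8, Grik1 and Grid1 and lower for Gria3, Slc17a6 and Slc17a7, were lost with DESeq2 (adjusted p = 0.0735 for Slc17a6 to 0.377 for Grm8).

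Footprint reads of a gene per kilobase of coding sequence of the transcript used were set over its mRNA reads per kilobase of all annotated exons. Footprint reads were counted per gene and were not limited to coding sequence here. This ratio was highest for Grin1 and lowest for Shank1 and Grik5 in both tissues. Grin1 stood at a log2 ratio of 3.27 ± 0.07 in sham DRG and 3.28 ± 0.03 in sham cord (SD, n = 2 lysates each). Grm8 was second in sham DRG at 2.89 and stood at 2.53 in sham cord, and Homer1, at 2.42 in DRG, was second in cord at 2.69. Gria2 stood at 2.31 in DRG and 2.30 in cord. At the other end were Shank1 at -1.90 in sham DRG and -0.94 in sham cord, and Grik5 at -1.52 in DRG and -0.69 in cord. Coding sequence made up 29.0% of the annotated exonic bases of Grin1, 27.5% in Grm8, 17.0% in Gria2 and 8.9% in Homer1. It made up 61.8% in Shank1 and 56.8% in Grik5, and the part of these shares in the ratio was not tested. The order differs without scaling to length: Homer2 stood at 1.06 in sham DRG and 1.66 in sham cord per kilobase, while its unscaled TE of -2.59 and -2.42 in sham DRG lysates and -1.80 and -2.02 in sham cord lysates was below that of Grik5, at -2.48 and -2.17 in DRG and -1.57 and -1.46 in cord.

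**Figure D5:**
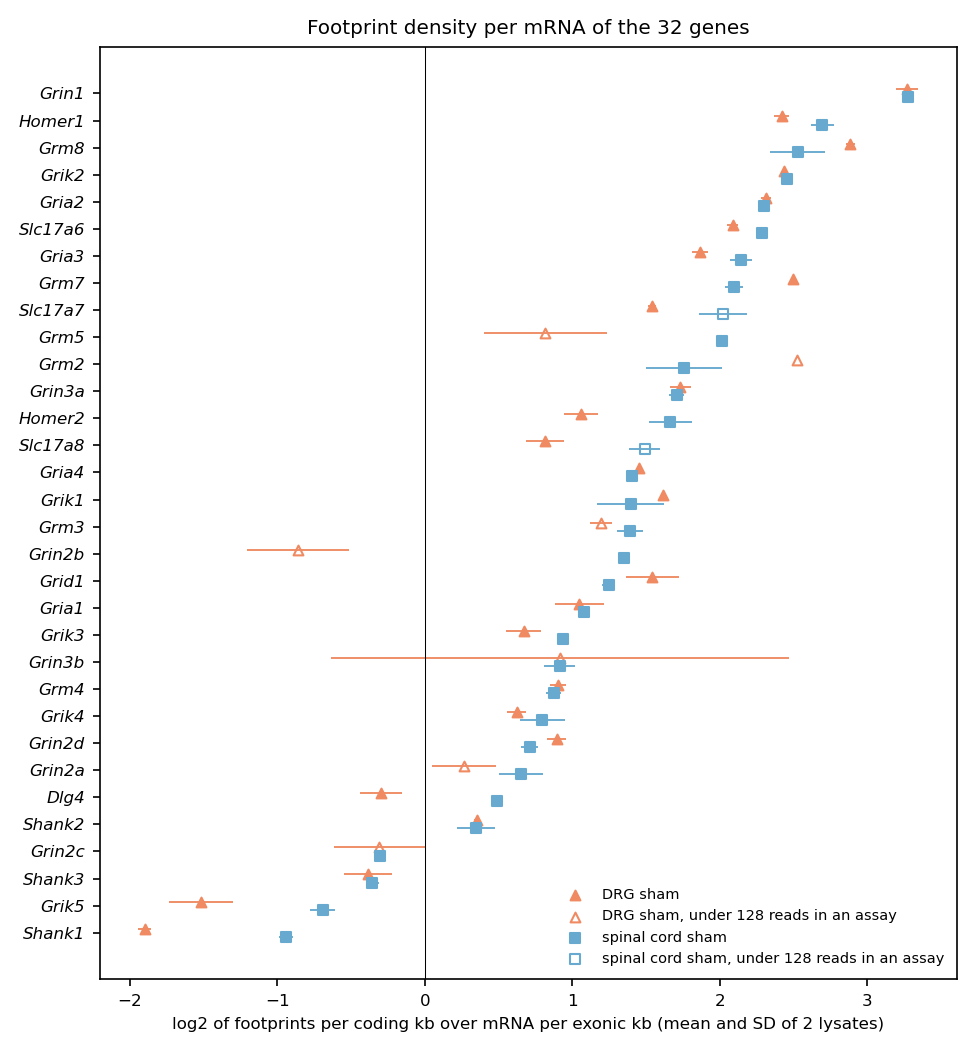
Log2 ratio of footprint reads per kilobase of coding sequence to mRNA reads per kilobase of exon for each member in sham DRG and sham spinal cord, as mean and SD of 2 lysates. Open markers had fewer reads in an assay than the minimum for a test. Grin1 is highest in both tissues, and Shank1 and Grik5 are lowest, with lower values in DRG than in cord.

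Related gene lists gave a frame for the members. Among 16 receptor partners tested in DRG mRNA (auxiliary subunits and trafficking proteins), 3 rose and 3 fell after SNI, where 15.9% and 17.0% of all genes did, which is also the background for the next lists. Neto1, a kainate and NMDA receptor auxiliary subunit, rose by 0.93 on the log2 scale in mRNA (edgeR adjusted p = 5.39e-10) and by 0.76 in footprints (1.09e-05). The AMPA receptor auxiliary subunit genes Cacng2 and Cacng4 were lower in mRNA, at log2 changes of -0.81 (edgeR adjusted p = 6.14e-14) and -0.49 (5.93e-06). Their footprints differed less. As a share of sham cord, Cacng2 footprints were 12.8% in SNI DRG and 14.7% in sham DRG, against 12.2% and 21.5% in mRNA. Those of Cacng4 were 12.9% and 15.0%, against 20.7% and 29.1% in mRNA. The largest fall among 14 receptor partners tested in DRG footprints was -0.23 on the log2 scale. Of 20 other postsynaptic density genes tested, 6 rose and 3 fell. Of 17 genes of glutamate uptake and metabolism, 2 rose and 7 fell, among them the transporter genes Slc1a2 (-0.84, edgeR adjusted p = 3.37e-16), which is also an astrocyte marker at 0.989% of sham cord in SNI DRG and 1.78% in sham DRG, and Slc1a1 (-0.37). Slc1a2 footprints were 0.508% of sham cord in SNI DRG and 0.616% in sham DRG. The part of cord marker RNA in the Slc1a2 values was not tested. In cord mRNA 0 of 18 receptor partners rose and 1 fell, and 0 of 21 other postsynaptic density genes rose and 1 fell. Of 17 genes of uptake and metabolism 1 rose and 3 fell there, beside 2.09% and 1.96% of all genes tested in cord mRNA.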

How the data were processed

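mRNA-seq and ribosome profiling libraries were prepared from the same lysates. Per the labels and the study's methods, the authors trimmed reads, removed ribosomal RNA reads, aligned the rest to GRCm38 and counted reads in genes. The submitters' processing notes name Bowtie 1.1.2, STAR 2.5.2b and HTSeq, whose version is not given in the sources used here. The deposited table holds whole-number counts per gene for all 16 libraries. The authors also deposited RPKM values, made from counts, library size and gene length, and TE ratios of footprint RPKM over mRNA RPKM. These 2 kinds of column were not used for tests.

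The counts were tested with edgeR 4.0.16 (quasi-likelihood, TMM) in R 4.3.3, on genes with at least 128 reads summed over the libraries of a fit, per assay for TE, with p-values adjusted over every gene in the fit (Benjamini-Hochberg) and calls at 0.05. TE was the surgery by assay interaction with 1 term per lysate. Per-lysate TE used 0.5 added reads. Each SE was worked back as the absolute log2 change over the square root of the edgeR F statistic. DESeq2 1.42.0, library sizes alone, other filters, a coefficient of variation fixed at 0.1, no lysate terms, a replicate block and leaving out each replicate were alternatives. Scripts were tested on simulated data. Tables and plots were made with Python 3.11.15, pandas 2.3.3 and matplotlib 3.10.9.

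The members and lists were chosen with earlier results of these data known. Called members are given with values in every library, the 12 with the largest change where more were called, and Grin2b in all cases. For sham tissue differences the 6 largest in each direction are named, and up to 4 genes from each other list.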

Additional observations from a re-analysis of the deposited data

Results flagged for a closer look

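The effect of SNI on mRNA was called different between DRG and spinal cord for 6 of 26 members tested, by the test of the difference itself (edgeR interaction of tissue and surgery). Of these, 2 were more positive and 4 more negative in DRG, beside 8.4% and 8.91% of all 13557 genes. The log2 change in DRG minus that in cord was -0.51 for Gria2 (SE 0.06, adjusted p = 9.57e-10), -0.29 for Gria4 (SE 0.05, adjusted p = 1.75e-05), -0.23 for Grin1 (SE 0.04, adjusted p = 1.03e-05) and -0.13 for Shank1 (SE 0.05, adjusted p = 0.0442). It was 0.42 for Grik3 (SE 0.07, adjusted p = 2.9e-05) and 0.17 for Grik5 (SE 0.05, adjusted p = 0.0086). The calls of Grik5 and Shank1 were lost with DESeq2 (adjusted p = 0.16 and 0.239). With edgeR's coefficient of variation fixed at 0.1, none of the 6 passed. Groups of 2 libraries were too small for a check of single outlying samples.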

How the results depend on the processing

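None of the calls compared across settings changed sign. In the sham tissue comparison of mRNA these were the 6 largest differences in each direction. Signs of uncalled members other than Grin2b were not compared. Counts below are members higher or lower at an adjusted p under 0.05. DESeq2 gave 1 higher and 5 lower in DRG mRNA, 0 and 3 in DRG footprints, 1 and 0 in DRG TE, 0 lower in cord mRNA, 1 and 6 in sham TE between tissues, and 1 more positive in the interaction of tissue and surgery. With the biological coefficient of variation fixed at 0.1, counts were 0 and 1 in DRG mRNA, 0 and 0 in DRG footprints, 0 and 0 in DRG TE, 0 lower in cord mRNA, 0 and 5 in sham TE, and 0 and 0 in the interaction. The fixed value of 0.1 is far above the 0.0099 fitted for DRG mRNA pools and for DRG TE. That 0.0099 recurred in several fits and is read as a lower limit of the estimate. Library sizes alone, no filter and the minimum applied to every library each gave 2 lower in DRG TE, Grin1 being the second. No filter gave 5 lower in sham TE, and the minimum in every library gave 3 lower in sham TE and 1 higher in DRG footprints. Leaving out 1 replicate gave 2 to 3 higher and 8 to 10 lower in DRG mRNA, 0 to 3 higher and 4 to 5 lower in DRG footprints, 1 to 2 higher and 0 to 2 lower in DRG TE, 0 to 6 lower in cord mRNA, 0 to 1 lower in cord footprints, 1 to 3 higher and 6 to 9 lower in sham TE, and 1 to 3 and 3 to 4 in the interaction. Over all genes, library sizes alone gave 3072 higher and 1781 lower in DRG mRNA, against 2308 and 2467 with TMM, 1354 and 829 against 1095 and 1080 in DRG footprints, and 1402 and 996 against 1139 and 1208 in the interaction. DESeq2 called 39 higher and 18 lower in cord mRNA, against 308 and 289 with edgeR, and 67 and 24 in cord footprints, against 145 and 124. The cause of these differences was not tested.

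The labels do not tie same-numbered pools together. Deviations of same-numbered libraries from their group means correlated at -0.03 to 0.04 in 3 sets and at 0.21 in DRG footprints. There a replicate block lowered the fitted coefficient of variation to 0.0099, against 0.043 without it. The same 0.0099 came from several unlike fits, so it is read as the lower limit of the estimate, not as a measured spread. With the block, DRG TE had 2 lower (Grin1 was added, adjusted p = 0.0246), DRG footprints 6 lower (Dlg4, 0.0482), and sham TE 3 higher. Groups of 2 pools limit every comparison, and members under the read minimum could not be tested.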
